A study of Mus musculus with 6 samples.

Results

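SR proteins and hnRNPs are the classical families of splicing regulators, and all of their genes named Srsf with a number or Hnrnp with a letter suffix were followed here. The rule selected 31 of the 18182 genes in the files, 11 Srsf and 20 Hnrnp, by name and not by measured values. RNA was sequenced from cells of Lewis lung carcinoma (LLC), a tumour line that arose in the lung of a mouse, which were labelled with red fluorescent protein (RFP) and sorted by flow cytometry from subcutaneous primary tumours. The hosts were wild type C57BL/6 mice that received LLC-RFP alone (LLC alone, 3 libraries) or LLC-RFP together with bone marrow-derived mesenchymal stem cells (BMSCs; LLC with BMSCs, 3 libraries). Both groups carry the RFP label, and the ages of the mice and the number of tumours behind each library are not given in the labels, so p-values measure only the spread between these libraries, which may be technical. The estimated counts summed to between 33476347 and 46189113 per library. The question was how the 2 families, and the transcripts made from each of their genes, differed in LLC cells that grew with BMSCs.

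SR proteins bind exonic enhancers through RNA recognition motifs and recruit the spliceosome through a domain rich in arginine and serine, which generally favours inclusion of the bound exon. hnRNPs coat nascent RNA and often silence exons, and several also act in mRNA export, stability and translation. Members of both families balance each other at shared exons, and many of their genes regulate themselves by splicing of their own transcripts. Changes of both families are known in lung and other cancers.

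The sorted cells were checked against markers before the families were read. Krt8, a keratin of carcinoma cells, stood at 95.3 ± 5.98 FPKM (fragments scaled by transcript length and library size; SD, n = 3) in LLC alone and at 110.0 ± 2.85 in LLC with BMSCs, while the other 4 epithelial markers were near 0: Epcam, Cdh1 and Krt19 had at most 5 counts in any library, and Krt18 was at 0.0833 ± 0.0503 against 0.653 ± 0.0321 FPKM (log2 fold change 2.91, edgeR adjusted p = 0.000221). Of 12 bone marrow stromal and fibroblast markers, 10 were tested and all 10 were higher in LLC with BMSCs, with a summed level of 80.2 to 91.6 FPKM in LLC alone and 189 to 197 FPKM in LLC with BMSCs. Col3a1 (mean 41.2 against 100 FPKM), Eng (28.7 against 34.8) and Ly6a (3.57 against 26.0) made up most of it. Col1a1, Dcn and Lum, near 0 in LLC alone, were at 2.0, 6.31 and 0.237 FPKM in LLC with BMSCs. Thy1 and Cxcl12 of the stromal list were at 0 counts in every LLC alone library and reached 2 and 12 counts in LLC with BMSCs. Among the tested neutrophil markers 5 of 5 were higher, with sums of 0.21 to 0.54 FPKM against 39.6 to 48.1 FPKM, and the S100a8 and S100a9 transcripts made up most of the sum with BMSCs. Ly6g and Elane were not tested. Ly6g had at most 4 counts, at 0.08 FPKM in LLC alone against 0.0467 in LLC with BMSCs. Elane was at 0 in LLC alone and reached 11 counts in LLC with BMSCs. Macrophage markers were higher for 5 and lower for 1 of 7 tested genes, with overlapping sums of 16.9 to 20.4 and 19.7 to 21.3 FPKM. Adgre1, which defines that type, was at 0 in LLC alone but averaged 0.477 FPKM with BMSCs (log2 fold change 9.03). Itgam (mean 0.00667 against 1.17 FPKM), Mrc1 (0.0333 against 0.277) and Csf1r (0.11 against 0.527) were also higher. The largest levels in this list were those of Cd14 (9.49 against 10.1, not called), Cd68 (5.55 against 3.03, lower) and Lyz2 (3.08 against 4.71, higher). C1qa, C1qb and C1qc of the macrophage list were not tested and had at most 3 counts in any library. None of the 7 lymphocyte markers in the files had enough counts to be tested, and 1 endothelial marker, Pecam1, was tested and did not pass. The part of these other cells in the values of the SR proteins and hnRNPs was not tested. In such sorted bulk samples, fewer cells of a type and less RNA per cell cannot be told apart.

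Of the 31 genes, 30 had enough counts for the test. Srsf12 had a single count in 1 LLC alone library and none in the others. Among all 13353 tested genes 31.5% were called higher and 31.3% lower in LLC with BMSCs (62.9% in either direction; edgeR quasi-likelihood test, Benjamini-Hochberg adjusted p under 0.05), so the background of calls was high. Against it, 6 of 10 tested SR protein genes were called higher and 0 lower (0 at an unadjusted p under 0.05, and 0 by DESeq2 and limma), and 8 of 20 hnRNP genes were called higher and 4 lower. The median log2 fold change was 0.56 for the SR proteins, 0.13 for the hnRNPs and 0.01 for all tested genes. The normalised counts of the groups did not overlap for 6 SR protein genes and 14 hnRNP genes, beside 71.3% of all tested genes. The number of SR proteins called higher was 6 without any single library other than replicate 3 of LLC alone, and 8 without that one. The number of hnRNPs called higher was 5 without replicate 1 or 2 of LLC alone or replicate 2 or 3 of LLC with BMSCs, 6 without replicate 1 of LLC with BMSCs, and 10 without replicate 3 of LLC alone.

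**Figure D1:**
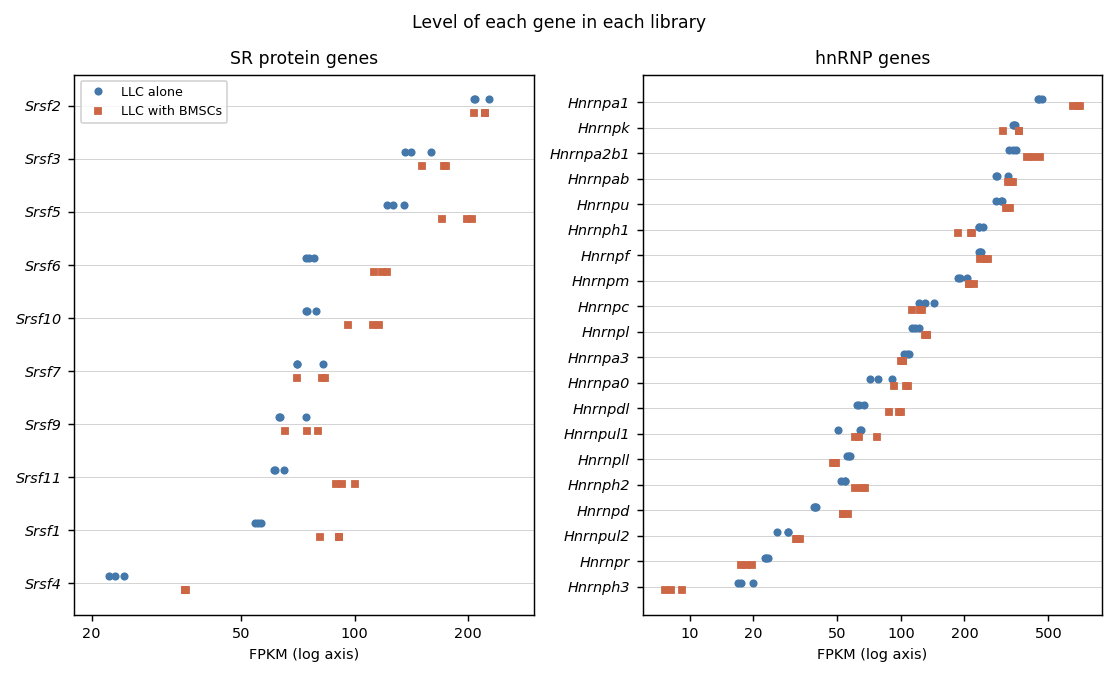
Level of each tested SR protein gene (left) and hnRNP gene (right) in FPKM on a log axis, with 1 point per library (circles, LLC alone; squares, LLC with BMSCs; 3 each). The genes run from 18.1 FPKM for Hnrnph3 to 454 FPKM for Hnrnpa1 in the mean of LLC alone, and the squares lie to the right of the circles for Srsf1, Srsf4, Srsf5, Srsf6, Srsf10 and Srsf11.

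Levels per length differed widely among the genes. In LLC alone the mean was highest for Hnrnpa1 (454 ± 10.1 FPKM), followed by Hnrnpk (343 ± 3.65) and Hnrnpa2b1 (338 ± 11.7), whose library values overlapped, and then by Hnrnpab (297 ± 21.3) and Hnrnpu (294 ± 9.9), which also overlapped. Srsf2 was the most abundant SR protein gene (215 ± 11.3 FPKM), and Srsf4 (23.2 ± 1.09 FPKM) the least abundant of those tested. In LLC with BMSCs, Hnrnpa1 stayed first at 681 ± 27.6 FPKM, and Hnrnpa2b1 (426 ± 31.1) stood above Hnrnpk (342 ± 32.6). The FPKM of all SR proteins summed to 901, 890 and 977 in LLC alone and to 1081, 1202 and 1228 in LLC with BMSCs. That sum was 1.27 times as high in the mean, with groups that did not overlap. The hnRNPs summed to 3130, 3151 and 3232 FPKM in LLC alone and 3447, 3652 and 3750 FPKM in LLC with BMSCs, 1.14 times as high in the mean. Much of that rise lay in the abundant Hnrnpa1 (mean 454 to 681 FPKM) and Hnrnpa2b1 (338 to 426 FPKM), while 4 hnRNP genes were called lower. For both sums the two-sided exact permutation p over libraries was 0.1, the smallest that 3 against 3 libraries can give. The ratio of the SR sum to the hnRNP sum was 0.288, 0.282 and 0.302 in LLC alone and 0.314, 0.329 and 0.327 in LLC with BMSCs (exact permutation p = 0.1).

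The SR proteins that rose did so by similar amounts. Srsf1, the prototype of the family and a regulator with oncogenic activity, was at 56.3, 54.5 and 55.2 FPKM in LLC alone and at 81.1, 90.8 and 91.1 FPKM in LLC with BMSCs. The groups did not overlap, and the log2 fold change was 0.64 ± 0.0631 (SE; edgeR adjusted p = 8.68e-05). Srsf6, which regulates alternative exons in epithelia, was at 75.8, 74.3 and 78.0 FPKM in LLC alone against 113, 119 and 122 FPKM in LLC with BMSCs, and the lowest library with BMSCs lay far above the highest without them. Its log2 fold change was 0.61 ± 0.0562 (edgeR adjusted p = 6.37e-05).

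Srsf10, an unusual member that turns into a splicing repressor when it is dephosphorylated, was at 74.6, 78.9 and 74.5 FPKM in LLC alone and 96.2, 112 and 116 FPKM in LLC with BMSCs. The gene rose by a log2 fold change of 0.59 ± 0.0923 (edgeR adjusted p = 0.000915). Srsf11, a nuclear SR protein with a single RNA recognition motif, was at 61.3, 61.0 and 65.1 FPKM in LLC alone and 89.4, 92.4 and 100 FPKM in LLC with BMSCs, again without overlap. Its log2 fold change was 0.57 ± 0.065 (edgeR adjusted p = 0.000191). Srsf5 was at 126, 122 and 135 FPKM in LLC alone and 170, 199 and 205 FPKM in LLC with BMSCs, and rose by a log2 fold change of 0.57 ± 0.0824 (edgeR adjusted p = 0.000637). Srsf4, a larger member close in sequence to Srsf5 and Srsf6, rose by 0.55 ± 0.0555 on the log2 scale. These 6 calls held in each alternative that changed the counts, the scaling or the libraries, with log2 fold changes between 0.44 (Srsf1) and 0.74 (Srsf5).

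The other SR protein genes were not called. Srsf2, which regulates both splicing and transcriptional elongation, was at 210, 207 and 228 FPKM in LLC alone and at 208, 222 and 222 FPKM in LLC with BMSCs. Its libraries overlapped throughout, and the log2 fold change rounded to 0 ± 0.063 (edgeR adjusted p = 0.957). Srsf3, a small shuttling member that links splicing to mRNA export, had a log2 fold change of 0.17 ± 0.0859 (edgeR adjusted p = 0.112). Srsf9 had 0.11 ± 0.0988 and Srsf7 0.06 ± 0.092. In all 4 genes the groups overlapped, and replicate 3 of LLC alone was the highest of its group. Without that library Srsf3 (0.25, edgeR adjusted p = 0.00888) and Srsf9 (0.20, edgeR adjusted p = 0.0442) were called higher. Transcript length moved with the groups. In the shortest quintile of genes the median deviation (log2) was 0.06, 0.04 and 0.31 in LLC alone and -0.19, -0.09 and -0.11 in LLC with BMSCs, and in the longest quintile it was -0.02, 0 and -0.37 against 0.18, 0.10 and 0.13. All libraries with BMSCs thus leaned towards long genes, and replicate 3 of LLC alone leaned furthest towards short ones. With each library's length trend removed, 9 of 10 SR protein genes were called higher, beside 4758 of all 13353 tested genes (4210 in the main fit).

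**Figure D2:**
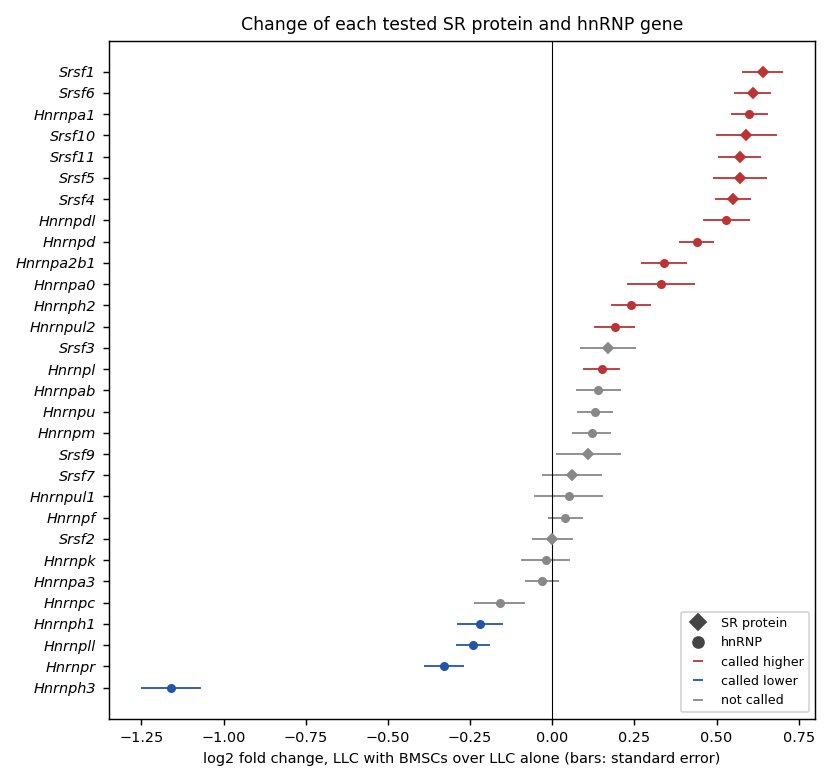
Log2 fold change of each of the 30 tested genes in LLC with BMSCs over LLC alone, with its standard error (diamonds, SR proteins; circles, hnRNPs). Red marks genes called higher, blue genes called lower and grey genes not called; Srsf1 lies highest at 0.64 and Hnrnph3 lowest at -1.16.

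The hnRNPs are taken here by subfamily. In the A/B group, whose members share a pair of RNA recognition motifs and a glycine-rich tail, Hnrnpa1 was at 444, 453 and 464 FPKM in LLC alone and 651, 686 and 706 FPKM in LLC with BMSCs. All libraries with BMSCs were above all libraries without them, with a log2 fold change of 0.60 ± 0.056 (edgeR adjusted p = 6.97e-05). Hnrnpa2b1, which also sorts RNA into transport granules and exosomes, was at 326, 340 and 349 FPKM in LLC alone and 396, 423 and 458 FPKM in LLC with BMSCs. The log2 fold change was 0.34 ± 0.0698 (edgeR adjusted p = 0.00341; 0.0587 with close pairs of libraries summed), and the groups did not overlap. Hnrnpa0 rose by 0.33 ± 0.103 (edgeR adjusted p = 0.0243), a call that was lost without replicate 1 or 2 of LLC alone or replicate 2 or 3 of LLC with BMSCs (adjusted p from 0.0739 to 0.0855). Hnrnpa3 was not called (-0.03 ± 0.0515), but with the length trend removed it was called lower (-0.22, edgeR adjusted p = 0.0127). Srsf1 and Hnrnpa1 are known to oppose each other in the choice of splice sites, and their FPKM ratio, computed after both changes were seen, was 0.127, 0.120 and 0.119 in LLC alone and 0.125, 0.132 and 0.129 in LLC with BMSCs. These ratios overlapped between groups (exact permutation p = 0.2).

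In the H/F group, which binds runs of G, the genes went different ways. Hnrnph3 was the only one of the 30 genes to change by more than a factor of 2, from 17.5, 17.0 and 19.9 FPKM in LLC alone to 7.61, 8.15 and 9.17 FPKM in LLC with BMSCs. The log2 fold change was -1.16 ± 0.0912 (edgeR adjusted p = 2.86e-05). The gene had fractional counts in all 6 libraries, and in each library the fraction was completed to a whole number by that of Rufy2, a gene whose span overlaps Hnrnph3 in RefSeq. Rufy2 was at 943, 1070 and 880 normalised counts in LLC alone and at 1586, 1684 and 1707 in LLC with BMSCs (log2 fold change 0.78 ± 0.0802, edgeR adjusted p = 0.000107), whereas Hnrnph3 was at 1598, 1555 and 1828 against 686, 726 and 817. Summed, the 2 genes had 2541, 2625 and 2708 normalised counts in LLC alone and 2272, 2410 and 2524 in LLC with BMSCs, without overlap and with a smaller difference than in either gene alone. How the estimation divided reads between these overlapping genes was not tested, and the fall of Hnrnph3 is uncertain for that reason.

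Hnrnph1 was at 234, 234 and 244 FPKM in LLC alone and 187, 214 and 218 FPKM in LLC with BMSCs. It fell without overlap, by -0.22 ± 0.0702 on the log2 scale (edgeR adjusted p = 0.0242), and lost the call without replicate 1 of LLC alone (adjusted p = 0.0508) or replicate 1 or 2 of LLC with BMSCs (0.0567 and 0.0511). Hnrnph2, the X-linked homologue of Hnrnph1, rose by 0.24 ± 0.0603 (edgeR adjusted p = 0.00853; 0.13 with the close pairs of libraries summed, replicates 1 and 2 of LLC alone and 2 and 3 of LLC with BMSCs). Hnrnpf, the remaining homologue, was not called (0.04 ± 0.0544). The FPKM ratio of Hnrnph1 to Hnrnpf was 0.995, 0.983 and 1.02 in LLC alone and 0.79, 0.833 and 0.863 in LLC with BMSCs, without overlap (exact permutation p = 0.1).

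In the D group, which binds AU-rich elements and controls mRNA decay as well as splicing, Hnrnpd rose from a mean of 39.3 ± 0.638 to 54.1 ± 1.56 FPKM (SD, n = 3), a log2 fold change of 0.44 ± 0.0536 (SE). Hnrnpdl, its paralogue, rose from 64.1 ± 2.84 to 95.2 ± 6.78 FPKM, a log2 fold change of 0.53 ± 0.0719. Hnrnpab, the third gene of that group, was not called (0.14 ± 0.0683, edgeR adjusted p = 0.106), though it was without replicate 3 of LLC alone (0.21, edgeR adjusted p = 0.00216). With the length trend removed, Hnrnpd was at 0.18 and no longer called (edgeR adjusted p = 0.129), while Hnrnpdl stayed called at 0.52.

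Hnrnpr, which binds mRNA in the cytoplasm as well as in the nucleus, was at 23.1, 23.4 and 22.8 FPKM in LLC alone and 17.6, 18.6 and 19.8 FPKM in LLC with BMSCs, a fall of -0.33 ± 0.0607 on the log2 scale (edgeR adjusted p = 0.00208) that was -0.64 with the length trend removed. Hnrnpll, a regulator of Cd45 splicing in lymphocytes, was at 56.7, 55.4 and 57.3 FPKM against 47.7, 48.9 and 49.1 FPKM and fell by -0.24 ± 0.0519 (edgeR adjusted p = 0.00474; 0.0783 with close pairs summed). Its paralogue Hnrnpl stood at 0.15 ± 0.0566 (edgeR adjusted p = 0.0434). Hnrnpul2 was called higher at 0.19 ± 0.0631 (edgeR adjusted p = 0.0327). The calls of Hnrnpl and Hnrnpul2 were each lost when any library other than replicate 3 of LLC alone was left out (adjusted p from 0.0502 to 0.15), and Hnrnpul2 was at -0.03 with the length trend removed. Hnrnpc, Hnrnpk, Hnrnpm, Hnrnpu and Hnrnpul1 were not called, with log2 fold changes from -0.16 (Hnrnpc) to 0.13 (Hnrnpu). Hnrnpk was at 342, 340 and 347 FPKM in LLC alone and 305, 362 and 361 FPKM in LLC with BMSCs, so that replicate 1 with BMSCs lay below and the other libraries with BMSCs above all of LLC alone. Hnrnpu was called without replicate 3 of LLC alone (0.11, edgeR adjusted p = 0.0385), and its fractional counts were completed by those of Cox20, whose span overlaps it. Cox20 had at most 650 normalised counts in any library, against at least 46743 for Hnrnpu.

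Several hnRNP genes have RefSeq transcripts that differ by a coding exon or a shorter coding stretch. Shown here are 4 of those whose inclusion is described next, whether or not it differed between the groups. The deposited files name transcripts but hold no coordinates or sequences, and the labels name the build mm8, so RefSeq transcript names were matched to GENCODE M21 transcripts, and the positions are those of GRCm38. Capitals mark the codons TAT and TAC, which encode tyrosine, in the reading frame of the transcript. All 4 stretches are coding, with a length that is a multiple of the codon and no stop codon inside.
Hnrnpd 57-base exon: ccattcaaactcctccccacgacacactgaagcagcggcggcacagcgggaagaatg
Hnrnpd 147-base exon: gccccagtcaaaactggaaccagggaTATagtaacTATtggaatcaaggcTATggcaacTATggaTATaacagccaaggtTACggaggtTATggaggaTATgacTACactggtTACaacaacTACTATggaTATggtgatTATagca
Hnrnpab 141-base exon: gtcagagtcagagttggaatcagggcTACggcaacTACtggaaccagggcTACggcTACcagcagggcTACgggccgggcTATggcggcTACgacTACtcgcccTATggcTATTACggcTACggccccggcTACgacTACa
Hnrnpc 39-base stretch: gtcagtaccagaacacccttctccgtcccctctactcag
They lie at chr5:99976534-99976590 and chr5:99963731-99963877 (Hnrnpd), chr11:51601750-51601890 (Hnrnpab) and chr14:52081789-52081827 (Hnrnpc), all on the minus strand. The 147-base exon of Hnrnpd holds 14 tyrosine codons among 48 whole codons, and the 141-base exon of its homologue Hnrnpab 14 among 46. The 57-base and 39-base stretches hold none.

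Inclusion is given as the share of a gene's RefSeq transcript counts that came from transcripts with the stretch. In Hnrnpd the longer exon, which extends the tail of the protein, was included at 69.6, 71.0 and 70.8% in LLC alone and at 64.4, 64.5 and 66.2% in LLC with BMSCs. All libraries with BMSCs were below those without, by 5.4 percentage points in the mean. The 57-base exon was included at 77.6, 82.6 and 80.0% against 75.6, 78.4 and 78.8%, which overlapped (exact permutation p = 0.3). The transcript that lacks both exons, NM_001077267, which encodes the smallest Hnrnpd protein, took 2.3, 4.6 and 5.5% of the gene in LLC alone and 8.4, 7.4 and 9.9% in LLC with BMSCs.

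The homologous exon of Hnrnpab moved the other way, from 35.2, 33.8 and 33.9% in LLC alone to 39.2, 37.5 and 37.7% in LLC with BMSCs. The 39-base stretch of Hnrnpc, the insert that distinguishes the C2 from the C1 protein, was at 34.7, 32.6 and 35.0% against 40.6, 40.0 and 37.3%. The transcripts with and without it also differ outside this stretch. A 117-base exon of Hnrnpm was at 21.8, 21.2 and 21% in LLC alone and 20.2, 18.6 and 18.9% in LLC with BMSCs, and a 120-base exon of Hnrnpa2b1 averaged 56.1 ± 2.78% and 53.4 ± 2.29% (SD, n = 3), with overlap. Assembled transcripts, which this measure leaves out, took 68.4 to 77.0% of the Hnrnpa2b1 counts and 15.7 to 32.8% of those of Hnrnpc, so that for Hnrnpa2b1 it rests on the smaller part of the gene. For each stretch whose groups did not overlap the exact permutation p was 0.1, which the design cannot go below. Across all genes with at least 2 transcripts, Hnrnpab (edgeR adjusted p = 0.292) and Hnrnpm (0.137) were not called for transcript usage.

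**Figure D3:**
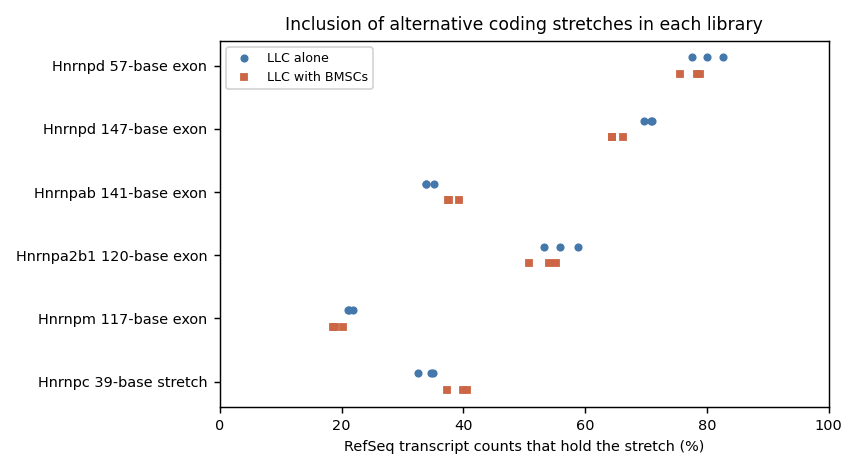
Share of RefSeq transcript counts that hold each of 6 alternative coding stretches, in percent, with 1 point per library (circles, LLC alone; squares, LLC with BMSCs). The Hnrnpd 147-base exon falls from about 70.5 to 65.0% in the mean and the Hnrnpab 141-base exon rises from 34.3 to 38.2%.

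Transcript usage was then tested over the whole series. The 31 genes had 106 transcripts in the files, 69 with RefSeq names and 37 that the authors had assembled and that carry no sequence here. Of 4978 genes with at least 2 usable transcripts 21.1% were called (edgeR adjusted p under 0.05), and 14.5% were called with a share that moved by at least 10 percentage points. Among the SR proteins and hnRNPs 11 of 23 were called, 2 of 7 SR protein genes and 9 of 16 hnRNP genes, and 4 of them moved by at least 10 points. The number called, 11 with all libraries, was 5 without replicate 2 and 4 without replicate 3 of LLC with BMSCs, and 8 to 11 without any of the other libraries. Hnrnpdl, Hnrnpf, Hnrnpc and Hnrnpa1 were called in each of the 10 other fits tried.

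Hnrnpdl moved most. Its RefSeq transcript NM_016690 took 36.5, 34.6 and 38.6% of the gene's transcript counts in LLC alone and 56.7, 55.0 and 54.6% in LLC with BMSCs (gene-level edgeR adjusted p = 4.44e-06). An assembled transcript, T006420, went from 26.3, 27.1 and 23.5% to 10.6, 9.3 and 9.8%. The gene thus rose in total while its share on the assembled transcripts went from between 61.4 and 65.4% to between 43.3 and 45.4%. In Hnrnpc, which was not called in total, the assembled transcript T002431 fell from 29.4, 32.5 and 28.5% to 17.5, 18.8 and 15.1%, and NM_016884, which holds the 39-base stretch printed above, was at 24.4, 21.9 and 24.8% against 33.5, 32.3 and 31.4% (gene-level edgeR adjusted p = 0.00182). The groups did not overlap for either transcript.

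Hnrnpf shifted between transcripts of equal coding length. Its transcript NM_133834 took 67.1, 68.9 and 71.3% in LLC alone and 74.5, 79.3 and 78.9% in LLC with BMSCs (gene-level edgeR adjusted p = 0.000165), and the matched annotation gives all 7 transcripts a coding length of 1245 bases. Hnrnpa1 shifted by less, with its main transcript NM_010447 at 77.6, 76.6 and 77.3% against 72.5, 72.9 and 71.3% (gene-level edgeR adjusted p = 0.00156), while the assembled transcript T002981 went from 7.9, 8.0 and 8.4% to 11.6, 12.1 and 12.2%. In Hnrnph3, the assembled T000677 was at 12.8, 9.1 and 12.7% against 18.6, 26.8 and 21.7% (gene-level edgeR adjusted p = 0.0109), beside the shared reads described above. That call was lost without replicate 1 or 2 of LLC alone or replicate 3 of LLC with BMSCs (adjusted p from 0.0522 to 0.0611).

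Among the SR proteins, Srsf10 and Srsf11 were called for usage. In Srsf10 the assembled T005955 took 49.5, 50.3 and 32.1% in LLC alone and 55.7, 56.8 and 58.2% in LLC with BMSCs (gene-level edgeR adjusted p = 0.0152), so that replicate 3 of LLC alone stood far below the rest. Without that library the adjusted p was 0.0447, and without any one library with BMSCs it was between 0.0561 and 0.157. RefSeq transcripts of Srsf10 with the short coding sequence (546 or 549 bases) together took 32.3, 30.9 and 36.7% against 28.0, 25.7 and 25.1%, and those with the long one (783 or 786 bases) 17.3, 17.6 and 29.4% against 15.5, 16.9 and 16.1%. Srsf11 had its transcript NM_001093753 at 19.3, 22.3 and 21.1% in LLC alone and at 22.2, 35.0 and 35.1% in LLC with BMSCs (gene-level edgeR adjusted p = 0.0468). Replicate 1 with BMSCs lay within the range of LLC alone, and the call was lost without any library other than that one (adjusted p from 0.0794 to 0.195). Srsf1, Srsf5, Srsf6 and Srsf7 were not called, and the main Srsf1 transcript NM_173374 took 89.8, 90.0 and 91.3% against 89.9, 89.3 and 89.0%.

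Hnrnpa2b1, Hnrnpd, Hnrnpk and Hnrnpu were called too, with share changes of at most 7.4 percentage points. In Hnrnpk the largest of these, in NM_001301340, was 39.3, 43.0 and 40.0% against 41.2, 50.6 and 52.8%, and replicate 1 with BMSCs again lay with LLC alone. The usage calls of these 4 genes were lost when some single libraries were left out: without replicate 2 of LLC with BMSCs the adjusted p was 0.3 for Hnrnpa2b1, 0.0901 for Hnrnpd, 0.136 for Hnrnpk and 0.0651 for Hnrnpu, and without replicate 3 it was 0.127, 0.166, 0.068 and 0.0551. Hnrnpa2b1 was also lost without replicate 1 of LLC with BMSCs (adjusted p = 0.103), Hnrnpd without that library (0.0915) or replicate 2 of LLC alone (0.0605), and Hnrnpk without replicate 1 or 3 of LLC alone (0.115 and 0.059). On transcripts with at least 50 counts and 10% of the gene, the edgeR adjusted p was 0.701 for Hnrnpd, 0.0569 for Hnrnpa2b1 and 0.017 for Hnrnpk. By limma on log2 shares the adjusted p was 0.275 for Hnrnpd, 0.0658 for Hnrnpk, 0.111 for Hnrnpu and 0.0332 for Hnrnpa2b1.

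**Figure D4:**
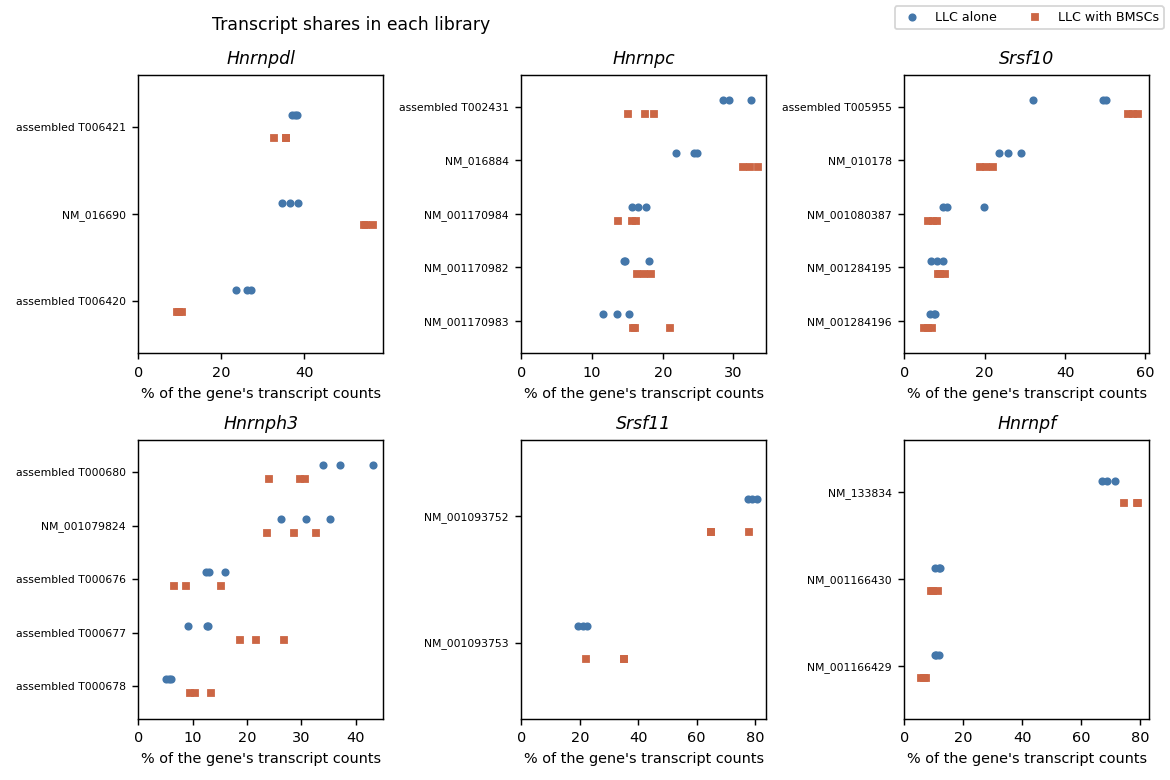
Share of each gene's transcript counts, in percent, taken by each tested transcript of the 6 called genes with the largest change, with 1 point per library (circles, LLC alone; squares, LLC with BMSCs). NM_016690 of Hnrnpdl moves from 36.6 to 55.4% in the mean, and in Srsf11 replicate 1 with BMSCs lies within the range of LLC alone.

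Reads shared with other genes touched part of the family. Fractional gene counts, which arise when reads are divided between genes, were found in 12 of the 31 genes and in all 6 libraries for 10 of them. Among all genes, 21.9 to 23.2% had a fractional count in a given library. That is a share per library and not the same measure, and the share in any or in all 6 libraries was not computed for all genes. Besides Hnrnph3 and Hnrnpu, the fractions of Srsf3 and Srsf5 were completed by unnamed assembled genes with at most 11.3 and 31.7 counts in any library, against at least 11468 and 6059 for the genes themselves. For Hnrnpa1, Hnrnpa3, Hnrnpf, Hnrnph2, Hnrnpk and Srsf4 no single gene completed the fractions, and their values are uncertain by the amount that was divided.

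The wider splicing machinery gave the context from 9 lists of genes. Of all 13353 tested genes, 4758 were higher and 4573 lower with the length trend removed, against 4210 and 4183 in the main fit. SR-related proteins, many of which also carry arginine- and serine-rich domains, had 21 of 28 tested genes higher and 3 lower, with a median log2 fold change of 0.36 (19 and 4, median 0.24, with the length trend removed). Srek1, a regulator that binds SR proteins, rose by 0.80 ± 0.0843 (edgeR adjusted p = 0.000122), Scaf11 by 0.72 ± 0.0935 and Ppig by 0.63 ± 0.0849, while Srrm4, a neuronal microexon regulator at 38 counts or fewer, fell by -1.07 ± 0.216 (edgeR adjusted p = 0.00329). Of the kinases and phosphatases that act on SR proteins, 3 of 12 were higher and 2 lower (5 and 3 with the length trend removed). Clk4 fell from 21.5 ± 0.45 to 11.8 ± 1.05 FPKM (SD, n = 3), with a log2 fold change of -0.92 (edgeR adjusted p = 2.83e-05). Clk1 fell by -0.31 ± 0.0692 on the log2 scale of the counts. Its fall in FPKM was larger, from 79.3 ± 3.74 to 51.7 ± 3.7, and the reason was not tested. Both are nuclear kinases of SR proteins. Prpf4b, a kinase of the spliceosome, rose by 0.53 ± 0.118 and Ppp1cc by 0.30 ± 0.062. Srpk1, the main cytoplasmic kinase, was at 0.16 ± 0.0704 (edgeR adjusted p = 0.0729).

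Proteins of hnRNP particles that carry other names were higher for 4 and lower for 6 of 16 genes, with a median of -0.06. Ptbp3 rose by 0.68 ± 0.0996, whereas its homologue Ptbp2, known from neurons, fell by -0.45 ± 0.0619, and Pcbp4 and Pcbp1, which bind runs of C as Hnrnpk does, fell by -0.67 ± 0.0814 and -0.43 ± 0.0963. In the core spliceosome 16 of 76 genes were higher and 25 lower (median -0.05), which turned to 30 higher and 23 lower (median 0.03) with the length trend removed. Phf5a (-0.98), Lsm4 (-0.92) and Sf3b4 (-0.89), subunits of spliceosomal particles, fell, and Prpf40b rose (0.81). The minor spliceosome had 1 of 8 genes higher (Snrnp48, 0.82) and 2 lower (Snrnp35, -0.80, and Zrsr1, -0.75), against 5 and 2 with the length trend removed.

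Other splicing regulators were higher for 13 and lower for 9 of 39 genes (median 0.06; 11 and 16, median -0.06, with the length trend removed), with the largest changes in genes at a low level: Rbm47, a regulator of epithelial splicing, was at 0.0967 ± 0.0208 against 0.59 ± 0.0529 FPKM (log2 fold change 2.62) and Elavl3, a neuronal regulator, at 0.38 ± 0.08 against 0.07 ± 0.01 FPKM (-2.43), beside Celf2 (1.86) and Celf5 (-1.44). Nonsense-mediated decay, the pathway that removes the unproductive transcripts of SR protein genes, had 5 of 15 genes higher and 2 lower (median 0.19; 4 and 4, median 0.01, with the length trend removed), among them Upf2 (0.37), Smg6 (0.36) and Gspt1 (0.36) higher and Dhx34 (-0.39) lower. The exon junction complex and export list had 6 of 22 higher and 5 lower (median -0.02; 9 and 2, median 0.04, with the length trend removed), with Ddx39 (0.59) and Zc3h14 (0.50) higher and Ncbp2 (-0.98) and Magohb (-0.76) lower.

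Genes reported as splicing targets of SR and hnRNP proteins were higher for 10 and lower for 2 of 27 (median 0.16; 13 and 4 with the length trend removed). Cd44, a surface receptor with many alternative exons, rose from 48.9 ± 0.293 to 79.7 ± 2.8 FPKM (SD, n = 3; log2 fold change 0.68), Actn1 by 0.76 ± 0.0757 and Tnc, a matrix protein also made by stromal cells, by 4.14 ± 0.148 from 0.07 FPKM, while Bcl2l1, an inhibitor of apoptosis, fell by -0.52 ± 0.0737. Of these targets 2 of 15 tested for transcript usage were called, beside 21.1% of all genes tested. The SR-related list had 7 of 22 genes and the core spliceosome 5 of 19 called for usage. Calls were also made in 4 of 7 SR kinases and phosphatases, 11 of 25 other splicing regulators and 4 of 10 hnRNP proteins under other names. The minor spliceosome had 2 of 4, nonsense-mediated decay 1 of 9, and the exon junction complex and export list 2 of 9. Several of these lists thus had shares of usage calls near that of the SR proteins and hnRNPs (11 of 23).

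**Figure D5:**
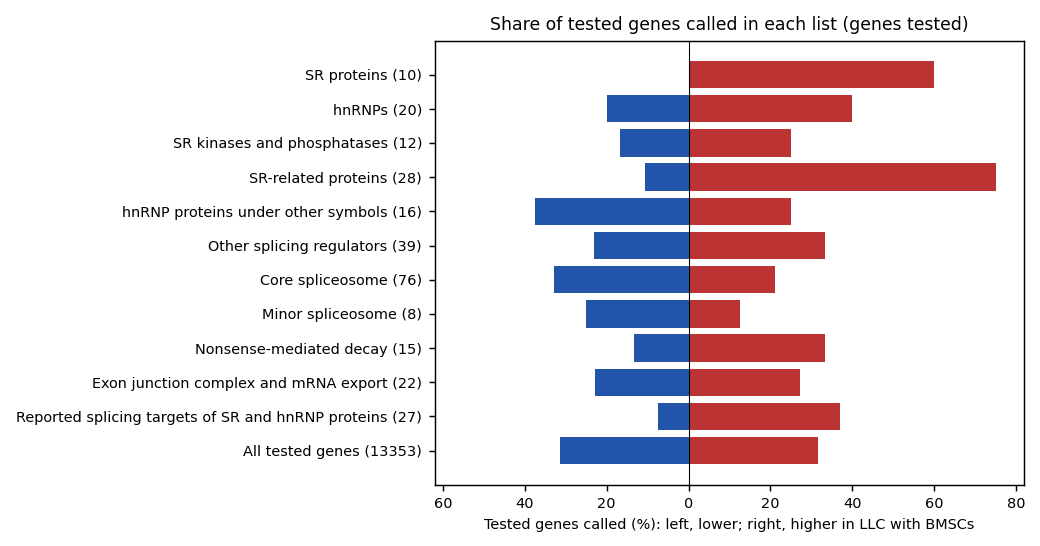
Percent of tested genes called higher (right, red) and lower (left, blue) in LLC with BMSCs for the SR proteins, the hnRNPs, 9 lists of splicing genes and all tested genes, with the number tested in parentheses. The SR-related list has 21 of 28 genes higher and the SR proteins 6 of 10, beside 31.5% of all tested genes.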

How the data were processed

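RNA from sorted RFP-positive LLC cells was sequenced in 6 libraries, 3 per group; per the study's methods the tumours were taken at a set volume and the reads were paired-end, from BGISEQ-500, while the labels name Illumina protocols. The authors deposited estimated counts (expected counts, with fractional values), transcript length and FPKM per gene and per transcript; the submitters' processing notes name HISAT, StringTie, Cufflinks, GATK and the build mm8, with no roles or versions. The deposited FPKM values are scaled by the authors for length and library size and are printed as levels per length. Assembled transcripts were added by the authors.

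Estimated counts were rounded to whole numbers, filtered with filterByExpr, scaled by TMM and tested by edgeR 4.0.16 (R 4.3.3) quasi-likelihood F tests across all 13353 genes kept, with p-values adjusted by Benjamini-Hochberg and called under 0.05; the SE was computed as the absolute log2 fold change over sqrt(F). Normalised counts are counts divided by effective library sizes and multiplied by their mean. Transcript usage was tested with diffSpliceDGE at the gene level on transcripts with at least 10 counts and at least 5% of the gene in 3 libraries. Groups were taken from the labels. Alternatives used DESeq2 1.42.0, limma 3.58.1 on log2(FPKM + 1) or log2(FPKM + 0.1), other filters and scalings, a length correction, summed close pairs of libraries, and each library left out.

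Full statistics were set for the 5 largest rises and falls among called genes without overlap (4 fell), the 2 highest members of each family, Hnrnpa1, Hnrnpa2b1 and Hnrnph1; for transcripts, the 6 called genes with the largest share change; for other lists, up to 4 called genes each. Srsf4, Srsf5, Hnrnpa0 and further genes outside this rule were added after their values were seen. The members and lists were chosen with earlier results of these data known. The share of non-coding transcripts was planned but could not be computed, since all transcripts are named NM_ or as assembled. In data simulated from the mean levels and totals of these libraries, the gene test recovered 186 of 200 genes changed 2-fold with 3 false calls, and the usage test 196 of 200 with 30 false calls, so single usage calls are less certain. The simulation had a fixed dispersion, no length trend and far fewer changed genes than were called here. Its counts therefore do not give the error rates of the calls in the data.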

Additional observations from a re-analysis of the deposited data

How the results depend on the processing

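Of 18 genes called among the 30 tested SR proteins and hnRNPs, 10 kept their direction and their side of the threshold in all 18 alternatives. The count of SR proteins called higher ranged from 6 to 8 with a library left out, and was 0 at an adjusted p under 0.001 with a log2 fold change of at least 1. That threshold left 0 hnRNPs higher and 1 lower, and 910 genes higher and 723 lower in all. With a library left out, 5 to 10 hnRNPs were higher and 3 to 4 lower; summing the close pairs of libraries gave 3 higher and 2 lower. Removing the length trend gave 9 SR proteins and 9 hnRNPs higher and 5 hnRNPs lower, beside 4758 genes higher and 4573 lower in all. Removing length and GC trends together, an alternative chosen after seeing the data, gave 9, 9 and 6. That fit called 4885 genes higher and 4672 lower in all, and the reason for these changes was not tested. For the lists, also computed after seeing the data, removing the length trend gave 5 SR kinases and phosphatases, 30 core and 5 minor spliceosome genes higher, and 16 other splicing regulators, 4 decay genes, 2 junction and export genes and 4 reported targets lower, which moved by over 1.5 times.

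Transcript usage was called in 536 genes and 5 members by limma on log2 shares, in 543 to 1118 genes and 4 to 11 members with a library left out, and in 4 members when a change of 10 percentage points was also required. Same-numbered libraries of the groups did not deviate together (correlations 0.08, -0.11 and 0.06, beside -0.16 to 0.15 for libraries with different numbers). These values gave no sign that the numbers pair the samples, and whether the numbers mark a shared batch was not tested. With the replicate number as a block, 4161 genes were higher and 4058 lower, 6 SR proteins and 6 hnRNPs higher and 4 hnRNPs lower, and 687 genes and 10 members were called for usage; not every library correlated best with its own number.

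Signs turned only near 0 or under the length corrections. Srsf2 was at 0.02 by library size without TMM, 0.00 with no filter or with at least 10 counts in every library, 0.02 in each limma fit, -0.03 to 0.05 with a library left out, 0.12 with the length trend removed (edgeR adjusted p = 0.0146) and 0.14 with length and GC trends removed. Hnrnpul2 was at -0.03 and -0.01 under those corrections, and Hnrnpul1 at -0.05 and -0.06; Hnrnpul1 ranged from -0.06 (without replicate 1 of LLC with BMSCs) to 0.11 with a library left out. Hnrnpk was at 0.00 by library size without TMM and ranged from -0.06 to 0.06 (without replicate 1 of LLC with BMSCs) with a library left out, and Srsf7 at -0.02 with close pairs summed. The cause of each was not tested. Leaving out a library leaves 2 in its group, and depth limits the low transcripts most. The planned share of non-coding transcripts gave no value under any setting.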
